A study of Rattus norvegicus with 22 samples.

Results

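Cux2, Etv1 and 6 other genes of cortical projection neurons were followed across the rats of 2 alcohol experiments. The list named 9 genes by symbol, namely Cux2, Cux1, Etv1, Slc17a7, Tbr1, Neurod6, Neurod2, Nrn1 and Rorb, and 8 of them were found among the 17310 gene symbols counted; Cux1 was not analysed here. Cux2 and Etv1 were chosen by their difference between the groups of experiment 1, where Cux2 was lower and Etv1 higher in EtOH rats, so that difference is described without a test. The comparison made was whether the levels of both genes went with those of the other 6 from rat to rat, in each experiment on its own.

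RNA from the nucleus accumbens (NAc) of 22 adult male Wistar rats was sequenced, with 1 library for each rat. In experiment 1, 5 rats had only water and 5 had water and 6% EtOH to choose from for 8 weeks. In experiment 2 all 12 rats had access to 6% EtOH for 4 weeks, then gavage for 3 weeks, and EtOH access again for 2 weeks; the gavage was water in 6 rats and EtOH (2.5 g/kg, 30%, 2 times a day) in the other 6. The control rats of experiment 2 were thus EtOH drinkers too, and the libraries of experiment 2 kept the strand while those of experiment 1 did not, so levels are compared only within an experiment.

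Projection neurons of the cortex are glutamatergic and are built by a cascade of transcription factors, several of which stay on in the adult and mark particular layers. The projection neurons of the NAc are GABAergic, and the glutamatergic axons that reach them have their cell bodies in cortex, amygdala, hippocampus and thalamus. The genes described here were listed for cortical projection neurons. Whether neurons of the NAc also express some of them was not tested. In tissue samples of this kind, fewer cells of a type and less RNA per cell cannot be told apart.

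Cux2 encodes a homeobox factor of upper-layer cortical neurons, and Etv1 an ETS factor known from deep-layer cortical neurons. Slc17a7 encodes the vesicular glutamate transporter of most cortical glutamatergic neurons. Tbr1 is a T-box factor of deep-layer neurons, Neurod6 and Neurod2 are basic helix-loop-helix factors of the glutamatergic lineage, Nrn1 encodes neuritin, a small membrane-anchored protein of synapses, and Rorb is a nuclear receptor of middle-layer neurons. Because basic helix-loop-helix factors bind E-boxes, the 250 bases upstream of the annotated start were read from RefSeq (GRCr8, a later build than the rn6 build behind the counts) for 7 of the 8 genes. They are shown for Cux2 and Etv1, on which the comparison turns, and for Slc17a7 and Neurod6, which varied together. The windows, all upstream of the transcript, lie at chr12:40179032-40179281 (plus strand) for Cux2, chr6:61317179-61317428 (plus strand) for Etv1, chr1:104785955-104786204 (plus strand) for Slc17a7 and chr4:86180156-86180405 (minus strand) for Neurod6. Capitals mark every CANNTG, which reads the same on both strands.
Cux2: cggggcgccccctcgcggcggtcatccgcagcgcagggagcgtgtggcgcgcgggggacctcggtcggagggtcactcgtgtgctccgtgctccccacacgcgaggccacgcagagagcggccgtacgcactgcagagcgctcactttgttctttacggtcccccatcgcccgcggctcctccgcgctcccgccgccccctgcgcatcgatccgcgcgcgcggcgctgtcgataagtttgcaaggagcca
Etv1: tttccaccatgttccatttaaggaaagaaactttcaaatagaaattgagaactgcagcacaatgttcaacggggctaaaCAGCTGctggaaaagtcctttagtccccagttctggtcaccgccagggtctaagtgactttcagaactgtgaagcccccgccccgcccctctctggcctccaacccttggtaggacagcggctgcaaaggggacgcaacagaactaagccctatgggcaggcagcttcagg
Slc17a7: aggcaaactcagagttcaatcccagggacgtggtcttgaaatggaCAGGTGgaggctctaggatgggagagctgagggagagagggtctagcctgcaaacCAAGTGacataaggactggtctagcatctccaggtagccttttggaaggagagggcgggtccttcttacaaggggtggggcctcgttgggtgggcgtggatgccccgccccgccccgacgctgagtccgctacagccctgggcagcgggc
Neurod6: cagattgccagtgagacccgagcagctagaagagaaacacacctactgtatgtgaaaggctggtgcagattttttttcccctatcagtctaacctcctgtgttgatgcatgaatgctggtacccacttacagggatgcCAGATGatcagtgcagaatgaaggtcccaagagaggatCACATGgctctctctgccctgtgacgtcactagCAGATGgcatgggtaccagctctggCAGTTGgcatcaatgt

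The Cux2 window held 0 CANNTG motifs, that of Etv1 1, that of Slc17a7 2 and that of Neurod6 4. Among the windows not shown, Tbr1 had 1, Neurod2 had 3 and Rorb had 0. The motif is common, in 65.5% of 33469 windows of this length. The narrower form CAGATG, searched as CATCTG on the other strand and contained in CANNTG, occurred 2 times for Neurod6, 1 time for Neurod2 and 0 times for the other 5 genes, against 14.0% of all windows with it. These are letter matches in a fixed window and were not tied to binding.

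Libraries held 2962291 to 5247386 reads on genes in experiment 1 and 6713617 to 8765472 in experiment 2, and 8655 genes passed the filter on low counts in each. Of 15 striatal projection neuron genes listed as markers of the labelled tissue, 14 were found with reads. Their summed level was 3169 to 6124 CPM, counts scaled to the size of each library, in experiment 1. In experiment 2 it was 4810 to 9203 CPM. No tissue other than NAc was sequenced, so these levels cannot tell NAc from its neighbours. In experiment 2, 3 libraries stood apart by a near absence of Slc17a7: water gavage rat 1 had 3.07 CPM (23 reads), water gavage rat 5 had 0.139 CPM (1 read) and EtOH gavage rat 1 had 1.88 CPM (13 reads). For Cux2 and Etv1 in experiment 2, the log2 fold changes and the r with Slc17a7, Tbr1, Neurod6, Neurod2 and Nrn1 are given with all 12 rats and with the other 9. Values of experiment 2 adjusted for the libraries, slopes on Slc17a7, the genes most like Cux2 or Etv1 and r with marker genes come from all 12 rats only. The rats of experiment 2 also varied more, with a common biological coefficient of variation of 31.3% against 11.1% in experiment 1.

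In experiment 1, Cux2 was lower in every EtOH rat than in any water rat, and Etv1 was higher. The Cux2 level of the 5 water rats was 94.1, 58.0, 69.0, 94.8 and 58.9 CPM, and that of the 5 EtOH rats was 49.4, 33.8, 48.1, 49.5 and 48.1 CPM. The groups did not overlap, and 4 of the 5 EtOH rats lay close together with EtOH rat 2 below them. The fitted log2 fold change was −0.70 (SE 0.15, edgeR), with group means of 74.97 ± 18.3 CPM in water rats and 45.8 ± 6.76 CPM in EtOH rats (SD, n = 5 each).

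Etv1 stood at 93.8, 118, 99.0, 100.35 and 129.7 CPM in the water rats and at 132.0, 181, 154, 135 and 135 CPM in the EtOH rats. These groups did not overlap either, although the highest water rat and the lowest EtOH rat were close. The log2 fold change was 0.44 (SE 0.11), with means of 108 ± 15.05 and 147 ± 20.6 CPM (SD, n = 5 each). Of all genes tested, 0.404% were lower and 0.439% higher in EtOH rats with no overlap between the groups; both genes were selected on this contrast, so nothing is read from their place in those shares.

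The other 6 genes did not separate the groups of experiment 1. Slc17a7 was at 79.7, 120.0, 233, 276 and 593 CPM in the water rats and at 271, 204, 561, 283 and 241 CPM in the EtOH rats. The water rats alone spanned a 7.45-fold range, which took in every EtOH rat. Its log2 fold change was 0.25 (SE 0.41, adjusted p = 0.98 in edgeR).

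Neurod6, as a transcription factor of the same lineage, gave the same picture, with 6.18, 16.8, 24.2, 31.5 and 63.6 CPM in the water rats and 37.4, 19.8, 59.3, 37.6 and 27.4 CPM in the EtOH rats. The groups overlapped, with a log2 fold change of 0.31 (SE 0.41). Tbr1 (0.03, SE 0.37), Neurod2 (0.43, SE 0.41), Nrn1 (0.34, SE 0.31) and Rorb (0.10, SE 0.14) likewise had log2 fold changes below or near their errors. None of the 6 was called at an adjusted p under 0.1 (edgeR, 0.94 to 1.0), beside 0.0% of all genes tested. At that threshold edgeR called 0 genes of 8655 while 483 had an unadjusted p under 0.05, and DESeq2 called 11.

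**Figure D1:**
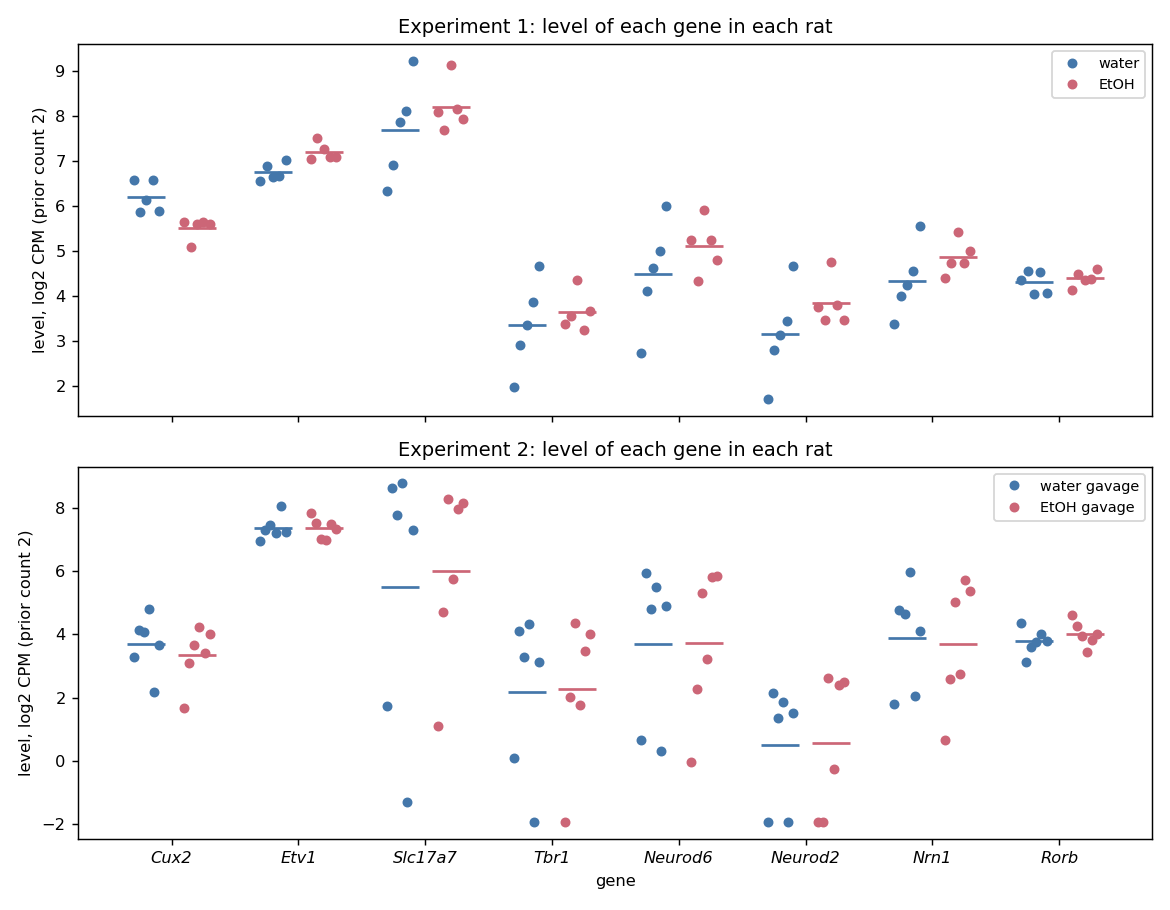
Level of the 8 genes in each rat (log2 CPM with a prior count of 2), with experiment 1 above and experiment 2 below; each point is a rat and each line a group mean. Cux2 and Etv1 separate the groups of experiment 1 and overlap in experiment 2, and the 5 genes from Slc17a7 to Nrn1 spread far more widely in experiment 2, where 3 rats have almost no Slc17a7.

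In experiment 2 neither gene separated the groups. Cux2 ranged from 4.32 to 27.9 CPM in the water gavage rats (median 14.5) and from 2.90 to 18.6 CPM in the EtOH gavage rats (median 11.4). The ranges overlapped over most of their length. The log2 fold change was −0.36 (SE 0.44, edgeR adjusted p = 0.70), and −0.50 (adjusted p = 0.34) without the 3 libraries that stood apart.

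Etv1 ranged from 123 to 267 CPM in water gavage rats (median 154) and from 127 to 229 CPM in EtOH gavage rats (median 171). Its log2 fold change was −0.016 (SE 0.20, adjusted p = 0.97), and the value without the 3 libraries was −0.023. The groups overlapped almost fully. The highest levels, 267 CPM in water gavage rat 5 and 229 CPM in EtOH gavage rat 1, fell in libraries with almost no Slc17a7. Water gavage rat 1, also low in Slc17a7, had the lowest level, 123 CPM. Which cells of the tissue gave the Etv1 reads was not tested.

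The remaining genes varied so widely among the rats of experiment 2 that their group differences had large errors. Slc17a7 ran from 0.139 to 437 CPM in water gavage rats (median 190) and from 1.88 to 307 CPM in EtOH gavage rats (median 152). Tbr1 was at 0 reads in water gavage rat 5 and EtOH gavage rat 1, where a count of 0 allows up to 0.418 and 0.435 CPM (3 reads, counting error only), and reached 20.2 CPM in the highest rat. Neurod2 was at 0 reads in 4 of the 12 rats, each allowing up to 0.400 to 0.470 CPM, and no more than 5.86 CPM in any.

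Log2 fold changes in experiment 2 were −0.40 (SE 1.17) for Slc17a7, −0.044 (SE 0.96) for Tbr1, 0.014 (SE 0.96) for Neurod6, 0.0049 (SE 0.82) for Nrn1 and 0.25 (SE 0.24) for Rorb. Neurod2 fell below the filter, and without a filter its value was 0.48 (SE 1.02). None of the 7 genes tested was called (adjusted p 0.67 to 1.0 in edgeR), beside 0.0% of all genes, with 115 genes of 8655 at an unadjusted p under 0.05 and 0 called by DESeq2. The groups of all 7 overlapped, as did those of nearly every gene, since 0.0116% of genes were lower and 0.0% higher in EtOH gavage rats with no overlap.

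**Figure D2:**
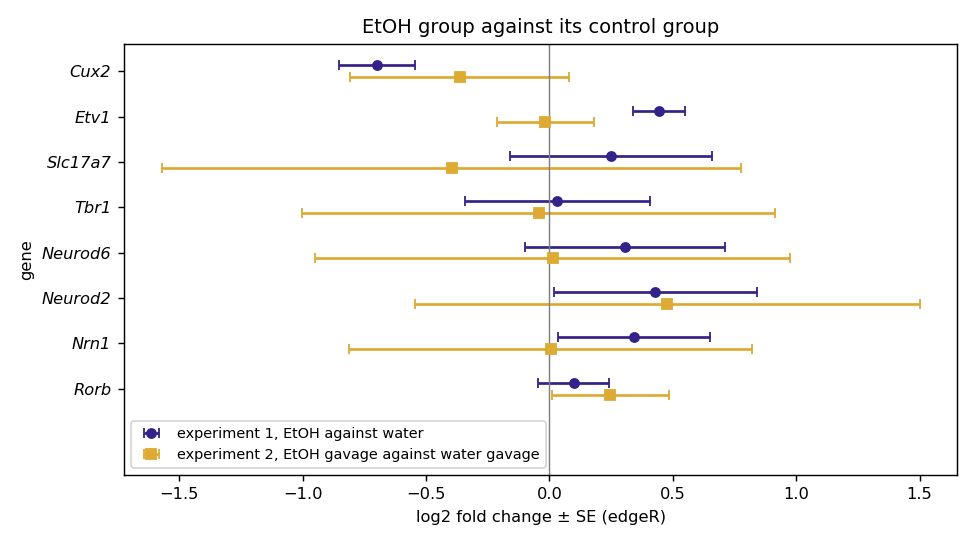
Log2 fold change of each gene between the EtOH group and its control group, with its SE (edgeR, horizontal axis), for experiment 1 (circles) and experiment 2 (squares; Neurod2 from the fit without a filter). Cux2 at −0.70 and Etv1 at 0.44 in experiment 1 chose these genes, and in experiment 2 both lie within 1 SE of 0.

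The rat-to-rat spread set the cortical genes apart from Cux2 and Etv1 before any pairing was considered. Within the groups of experiment 1 the SD of the level on the log2 scale was 0.88 for Slc17a7, 0.77 for Tbr1, 0.94 for Neurod6, 0.84 for Neurod2 and 0.62 for Nrn1, each wider than that of at least 99.3% of all genes tested. It was 0.30 for Cux2, wider than that of 88.8% of genes, and 0.19 for Etv1 and 0.21 for Rorb, beside a median over all genes of 0.16. In experiment 2 the same 5 genes had SDs of 1.83 to 3.59, against 0.91 for Cux2, 0.35 for Etv1, 0.40 for Rorb and a median of 0.34.

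Those 5 genes, Slc17a7, Tbr1, Neurod6, Neurod2 and Nrn1, rose and fell together over the rats in both experiments. Their 10 pairs had a Pearson r of 0.88 to 0.98 (median 0.95) over the 10 rats of experiment 1, computed on log2 levels centred on each group so that no group difference enters. Over the 12 rats of experiment 2 r was 0.89 to 0.98 (median 0.95). The genes share their libraries, and r values between them are not independent.

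With Slc17a7 as the anchor in experiment 1, Neurod2 (r = 0.98, rho = 0.95) and Neurod6 (r = 0.97, rho = 0.95) were called, each with the smallest adjusted permutation p reached, 0.090. Tbr1 (r = 0.95, adjusted p = 0.17) and Nrn1 (r = 0.93, adjusted p = 0.17) were not called by this exact permutation test. In all, 0.208% of genes were called in the positive direction and 0.0231% in the negative. Without the 2 rats farthest from the median of Slc17a7, water rats 1 and 5, r was 0.94 for Neurod2, 0.93 for Neurod6, 0.84 for Tbr1 and 0.76 for Nrn1. None was called then, nor without any single rat of the 10. Leaving out 1 rat kept r at 0.957 to 0.995 for Neurod2, 0.94 to 0.98 for Neurod6, 0.90 to 0.96 for Tbr1 and 0.86 to 0.96 for Nrn1. Fewer rats leave fewer orders for the permutation test and a larger smallest p, so the lost calls do not tell whether the relation held.

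In experiment 2 the same anchor gave r = 0.98 for Tbr1, 0.97 for Neurod6, 0.91 for Neurod2 and 0.90 for Nrn1. Here 32.5% of all genes were called positive and 31.7% negative, so a call by itself says little, and the place of the r among all genes says more: no gene had a higher r than Tbr1, and 0.0462% had a higher r than Neurod6. In the 9 rats left without the 3 low libraries r was 0.94 for Tbr1, 0.97 for Neurod6, 0.97 for Neurod2 and 0.93 for Nrn1. None of the 3 genes tested there (Tbr1, Neurod6 and Nrn1) was called (adjusted permutation p 0.40 to 0.48), beside 0.0% of all genes. With 9 rats the permutation test also has fewer orders, so the lost calls do not tell whether the relation held.

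Rorb was the exception among the cortical genes. Its level was 16.0 to 23.6 CPM over the 10 rats of experiment 1 and its r with Slc17a7 was −0.46 (adjusted p = 0.73 by exact permutation). In experiment 2 it ranged from 8.55 to 24.5 CPM, was highest in 2 of the rats with least Slc17a7, and had an r with Slc17a7 of −0.68 (adjusted p = 0.044 by permutation). In the 9 other rats that r was −0.16. Rorb thus had negative r values with Slc17a7 in both experiments, before the share of reads outside genes, given further on, was taken into account.

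**Figure D3:**
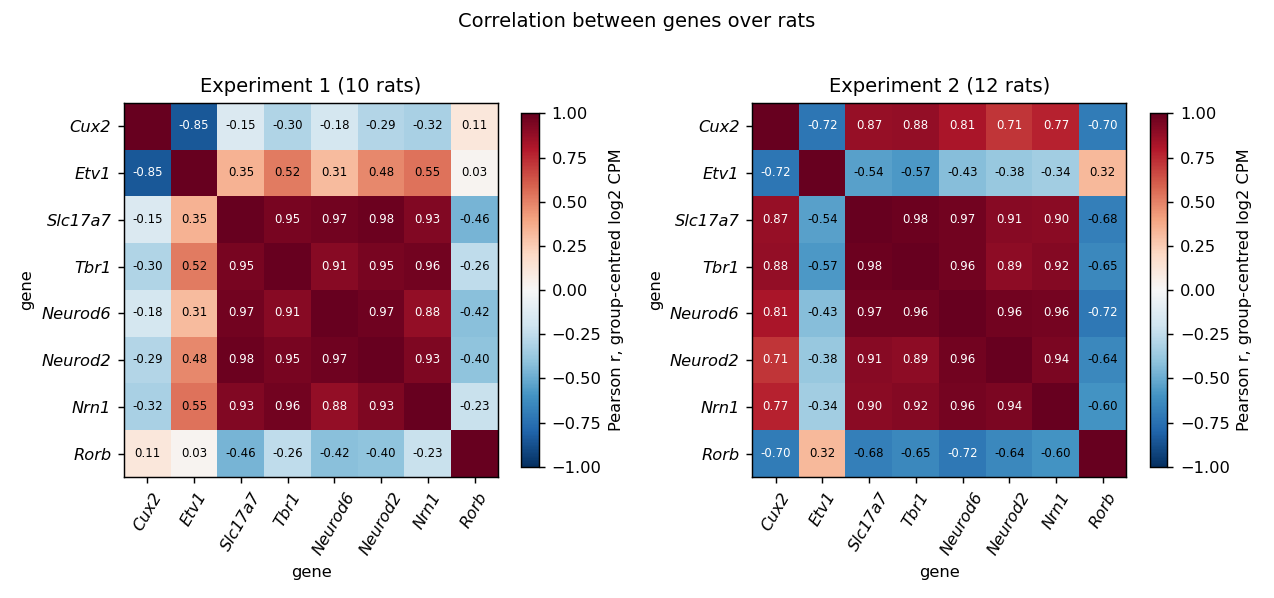
Pearson r between each pair of the 8 genes over the rats of experiment 1 (left) and experiment 2 (right), from log2 CPM centred on group means; colour and printed number both give r. The block from Slc17a7 to Nrn1 lies at 0.88 to 0.98 in both, while the Cux2 row goes from −0.15 with Slc17a7 in experiment 1 to 0.87 in experiment 2.

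Cux2 did not follow this group in experiment 1. Its r was −0.15 with Slc17a7, −0.30 with Tbr1, −0.18 with Neurod6, −0.29 with Neurod2, −0.32 with Nrn1 and 0.11 with Rorb, with rho from −0.19 to 0.14. None was called by the exact permutation test (unadjusted p 0.49 to 0.79, adjusted p 1.0 each), beside 0.0% of all genes called with Cux2. Against the mean of the 6 genes r was −0.24.

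Taking out the 2 rats farthest from the Cux2 median, water rats 1 and 4, turned the r with Slc17a7 to 0.25 and that with Neurod6 to 0.38, and the r with Rorb to −0.39. No single direction held over the rats. Water rat 1 had the least Slc17a7 (79.7 CPM) and water rat 5 the most (593 CPM), with 94.1 and 58.9 CPM of Cux2, while water rat 4 had as much Cux2 as water rat 1 at 276 CPM of Slc17a7.

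Etv1 had positive r values with the cortical group in experiment 1, none of which was called. They were 0.35 with Slc17a7, 0.52 with Tbr1, 0.31 with Neurod6, 0.48 with Neurod2, 0.55 with Nrn1 and 0.026 with Rorb. The exact permutation p was 0.12 to 0.43 unadjusted for the first 5 and 0.86 to 0.96 after adjustment over all genes, of which 0.0% were called with Etv1. The r with Nrn1 was exceeded by 7.05% of genes and that with Neurod6 by 21.9%.

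In experiment 1 the member with the r farthest from 0 with Cux2 was Etv1, in the opposite direction. Over the 10 rats of experiment 1 their r within groups was −0.85 (exact permutation p = 0.0092, adjusted p = 0.73; rho −0.70, p = 0.045), and it stayed between −0.91 and −0.77 when any 1 rat was left out. Without water rats 1 and 4 it was −0.89. Centring removes the group difference on which the 2 genes were selected, yet the value did not pass the adjustment over all genes.

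In experiment 2 Cux2 did go with the cortical group over all 12 rats. Its r was 0.87 with Slc17a7 (rho 0.80), 0.88 with Tbr1 (rho 0.74), 0.81 with Neurod6 (rho 0.72), 0.77 with Nrn1 (rho 0.76) and −0.70 with Rorb (rho −0.73), with permutation p from 0.0010 to 0.019 and adjusted p from 0.012 to 0.040. With Etv1 it was −0.72 (rho −0.50, adjusted permutation p = 0.033). Neurod2, below the filter, had an r of 0.71 (permutation p = 0.010). So 6 of the 6 genes tested were called, 4 positive and 2 negative.

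That count has to be read against all genes of experiment 2, of which 32.5% were called positive and 30.9% negative with Cux2. Higher values of r with Cux2 than that of Tbr1 were found for 2.36% of genes, higher than that of Slc17a7 for 3.35%, than that of Neurod6 for 11.3% and than that of Nrn1 for 17.3%. The middle 50% of all genes already ran from −0.66 to 0.70. Tbr1 and Slc17a7 thus lay near the top of a distribution that was itself spread out.

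The values were smaller without the rats that stood apart. Cux2 was at 9.47, 4.32 and 2.90 CPM in the 3 low libraries and at 8.30 to 27.9 CPM in the other 9 rats. In those 9, r was 0.37 with Slc17a7, 0.26 with Tbr1, 0.25 with Neurod6, 0.26 with Neurod2, 0.30 with Nrn1, −0.39 with Rorb and −0.57 with Etv1, none called (adjusted p 0.56 to 0.75 by permutation). Without the 2 rats farthest from the Cux2 median, EtOH gavage rat 1 and water gavage rat 5, the 5 positive values were 0.51 to 0.63 and that with Etv1 was −0.13, again with none called. In both of these sets of rats 0.0% of all genes were called with Cux2, and both leave fewer orders for the permutation test.

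Leaving out EtOH gavage rat 1 alone brought the genes called from 6 to 3, namely Slc17a7 (r = 0.84), Tbr1 (0.80) and Neurod6 (0.73), while the share of all genes called went from 63.3% to 24.3%. The genes no longer called had r values of 0.64 for Nrn1, −0.56 for Rorb and −0.63 for Etv1. Without water gavage rat 5 alone the call of Etv1 was lost (r = −0.56) and the other 5 were kept, with 63.9% of all genes called. When any 1 rat was left out, r stayed at 0.80 to 0.93 for Slc17a7, 0.80 to 0.96 for Tbr1, 0.73 to 0.89 for Neurod6 and 0.64 to 0.90 for Nrn1. The direction of Cux2 with the cortical genes was thus the same under every one of these steps, whereas its size and the calls depended on the rats kept, and the 9 rats were picked by the level of Slc17a7 itself.

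**Figure D4:**
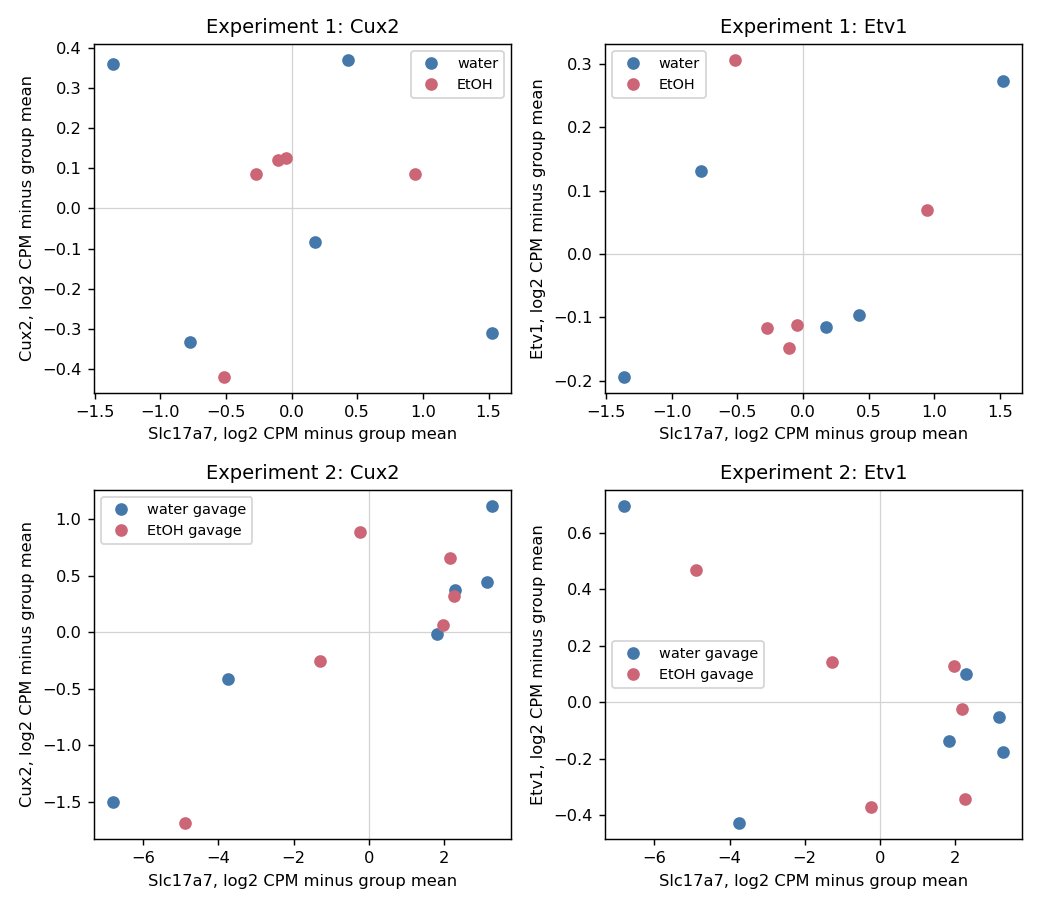
Cux2 (left) and Etv1 (right) against Slc17a7, each as log2 CPM minus its group mean, for the rats of experiment 1 (top) and experiment 2 (bottom); each point is a rat. Cux2 shows no trend in experiment 1 (r = −0.15), and in experiment 2 (r = 0.87) the slope is drawn mostly by the rats at the far left, with r = 0.37 in the 9 rats without the 3 low libraries.

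Etv1 in experiment 2 lay on the other side of the cortical group, with none called. Its r was −0.54 with Slc17a7, −0.57 with Tbr1, −0.43 with Neurod6, −0.38 with Neurod2, −0.34 with Nrn1 and 0.32 with Rorb (permutation p 0.068 to 0.32, adjusted p 0.29 to 0.49), beside 0.0% of all genes called with Etv1. In the 9 rats the values were −0.17 to 0.068 for the 5 genes that move together. Without water gavage rat 1, 6 genes were called, Cux2 included, with r = −0.82 for Slc17a7, but so were 58.2% of all genes; that rat had 123 CPM of Etv1, the lowest of the 12, at 3.07 CPM of Slc17a7.

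Against the mean of the 6 genes, the r of Cux2 was −0.24 in experiment 1, 0.83 in experiment 2 and 0.28 in the 9 rats. For Etv1 the same figures were 0.45, −0.48 and −0.070. Both genes had opposite signs in the 2 experiments before any adjustment for the libraries, and the difference itself was tested as a change of slope on Slc17a7 in a fit of all 22 rats. For Cux2 the slope was −0.061 (SE 0.15) per log2 unit of Slc17a7 in experiment 1 and 0.22 (SE 0.040) in experiment 2, a difference of 0.28 (SE 0.16) with an edgeR p of 0.091 and an adjusted p of 0.95. For Etv1 the slopes were 0.072 (SE 0.098) and −0.057 (SE 0.020), with a difference of −0.13 (SE 0.10, adjusted p = 0.95). A difference between the experiments was thus not shown for either gene, nor called for any of the 8176 genes in that fit, of which 260 had an unadjusted edgeR p under 0.05. That fit took 1 spread per gene for both experiments, although the common biological coefficient of variation was 11.1% in experiment 1 and 31.3% in experiment 2. It also held the 3 low libraries. Its errors and p-values may thus be off for each experiment, and it cannot settle whether the slopes differ.

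A measure of the libraries moved with these levels. The share of counted reads that fell outside annotated genes was 48.4% to 51.1% in experiment 1 and 46.1% to 58.0% in experiment 2. In experiment 1 its r, centred on groups, was 0.71 with Cux2, −0.79 with Etv1 and −0.54 with Slc17a7, where the median absolute r over all genes was 0.31. In experiment 2 it was −0.80 with Cux2, −0.82 with Slc17a7, 0.94 with Rorb and 0.38 with Etv1, and here the median absolute r over all genes was 0.78.

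After the part linear in that share was removed, the r of Cux2 in experiment 2 was 0.62 with Slc17a7, 0.68 with Tbr1, 0.40 with Neurod6, 0.13 with Neurod2, 0.37 with Nrn1 and 0.23 with Rorb, against a median absolute value of 0.32 over all genes. In experiment 1 the values of Cux2 became 0.39, 0.48, 0.36, 0.28, 0.24 and 0.10 in the same order, with a median of 0.30 over all genes. The cortical genes kept their relation to each other under the same step, at 0.90 to 0.97 for the 4 genes with Slc17a7 in experiment 1 and 0.70 to 0.95 in experiment 2. Rorb with Slc17a7 was −0.51 in experiment 1 and turned to 0.45 in experiment 2. Cux2 with Etv1 was −0.67 and −0.76.

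The values of Etv1 with the cortical genes changed as well. In experiment 1 they became −0.15 with Slc17a7, −0.17 with Tbr1, −0.25 with Neurod6, −0.03 with Neurod2 and 0.08 with Nrn1, against a median absolute value of 0.27 over all genes. In experiment 2 they became −0.43, −0.48, −0.21, −0.12 and −0.07 in the same order, with a median of 0.37 over all genes. With this step Cux2 was positive with all 5 genes in both experiments and Etv1 negative with all but Nrn1 in experiment 1, so the opposite signs of the 2 experiments were not seen after it. These partial values are descriptions, and the part of the share in the levels was not tested further.

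**Figure D5:**
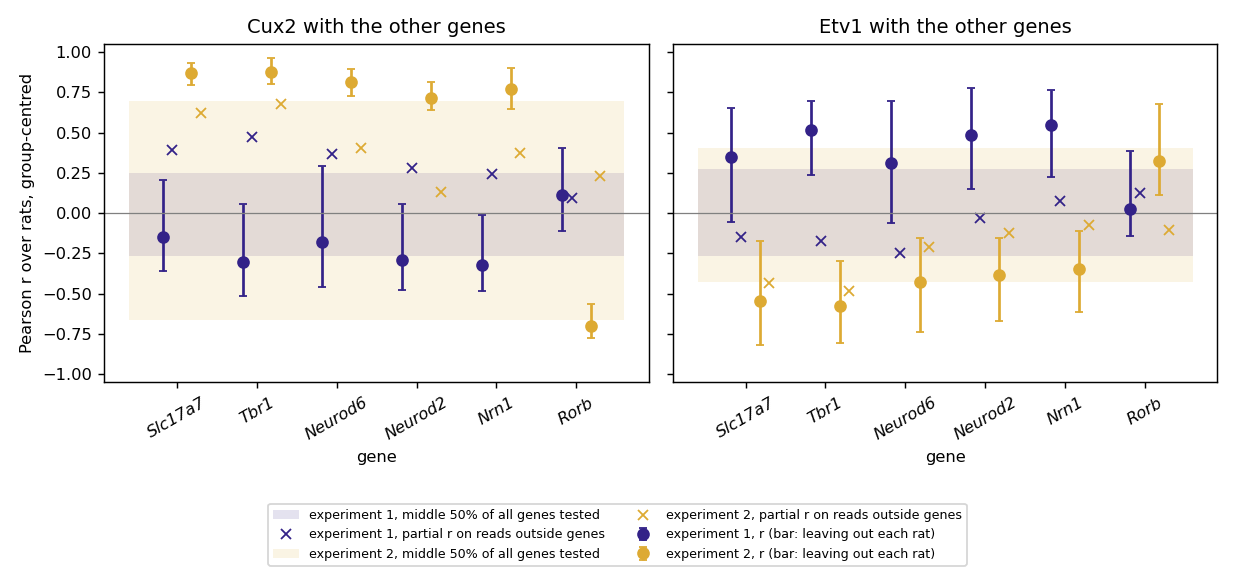
Pearson r of Cux2 (left) and Etv1 (right) with the other 6 genes over rats, in experiment 1 and experiment 2; dots are r, bars the range when each rat is left out, crosses the partial r after the share of reads outside genes, and bands the middle 50% of all genes tested. In experiment 2 the values of Cux2 with Tbr1 (0.88), Slc17a7 (0.87), Neurod6 (0.81), Nrn1 (0.77) and Neurod2 (0.713) lie above the band of −0.66 to 0.70. That with Rorb (−0.703) lies below it. In experiment 1 the 6 values of Cux2 lie between −0.32 and 0.11.

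None of the 8 genes was among the 5 most like Cux2 or Etv1 in either experiment, by the highest r over the rats. In experiment 1 the 5 highest r with Cux2 were those of Agpat3 (0.96), Ccdc176 (0.93), Gadd45a (0.93), Rnf112 (0.92) and Cltb (0.91). In experiment 2 they were those of Tubg2 (0.97), Dbndd1 (0.96), RGD1304884 (0.96), Kcnc1 (0.96) and Ank1 (0.96). In the other experiment, Agpat3, Rnf112 and Cltb again had a high r with Cux2 (0.85, 0.90 and 0.82), whereas Ccdc176 and Gadd45a had −0.78 and −0.75. The leaders of experiment 2 had −0.22 for Tubg2, −0.43 for Dbndd1, 0.64 for RGD1304884, 0.53 for Kcnc1 and 0.47 for Ank1 in experiment 1.

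For Etv1 the leading genes of experiment 1 were Nrgn (0.98), Rgs14 (0.94), Aldh3b1 (0.92), Cactin (0.89) and Fam69a (0.89). Nrgn encodes neurogranin, a calmodulin-binding protein of forebrain neurons. In experiment 2 they were Pogk (0.92), Spred1 (0.91), Rpl27a (0.91), Me2 (0.91) and Smc4 (0.90). In experiment 2 the r with Etv1 was −0.073 for Nrgn, −0.52 for Rgs14 and 0.45 for Fam69a, and the other 2 had no value there. In experiment 1 it was 0.019 for Pogk, 0.58 for Spred1, −0.24 for Rpl27a, 0.74 for Me2 and 0.37 for Smc4.

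Other genes of cortical glutamatergic neurons had values on both sides of 0. Of 20 further genes listed, 17 were found and 15 passed the filter in each experiment, and 0 were called in either. Their median r with Cux2 was −0.17 in experiment 1 (all genes −0.011) and 0.53 in experiment 2 (all genes −0.047). In experiment 1 single genes ran from −0.80 for Nrgn to 0.85 for Lmo4, both named after their values were seen. With Etv1 the medians were 0.38 and −0.073, against 0.010 and 0.0091 over all genes.

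The 15 genes had a median log2 fold change of 0.098 in experiment 1 and 0.029 in experiment 2. Bhlhe22, a basic helix-loop-helix factor, had the largest value in both, 0.60 (SE 0.42) and 0.29 (SE 0.50). The smallest was that of Slc17a6, which encodes a glutamate transporter of mostly subcortical neurons, in experiment 1 (−0.34, SE 0.21), and that of Nrgn in experiment 2 (−1.08, SE 0.55). The summed level of the 17 genes was 2386 to 3267 CPM in water rats and 2664 to 3234 CPM in EtOH rats, and 1376 to 2933 and 1582 to 2475 CPM in the groups of experiment 2.

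Markers of the other cells in the tissue were listed too, and 0 genes of any list were called. Striatal projection neuron genes had a median log2 fold change of −0.21 in experiment 1, with 2 of 14 higher in EtOH rats, and −0.11 in experiment 2. Drd1, a dopamine receptor gene of the direct pathway, had the smallest value in experiment 1 at −0.50 (SE 0.17) and Foxp1 the largest at 0.018 (SE 0.21). In experiment 2 the ends were Adora2a (−0.54, SE 0.24) and Rarb (0.23, SE 0.17).

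Interneuron genes had a median of −0.36 in experiment 1, where 1 of 9 was higher, and 0.0028 in experiment 2. Lhx8, a factor of cholinergic interneurons, was lowest in both, at −0.71 (SE 0.33) and −0.62 (SE 0.32), while Calb2 (0.0076, SE 0.18) and Vip (0.80, SE 0.72) were highest. Their summed level was 1402 to 1973 CPM in water rats and 1464 to 1818 CPM in EtOH rats. Cux2 is also known from some interneurons, and the median r of this list with Cux2 was 0.14 in experiment 1 and 0.11 in experiment 2. The median of experiment 2 covers large values in both directions. Sst had 0.79, Vip 0.75, Calb2 0.60, Pvalb 0.52 and Chat 0.24. Lhx6 had −0.023, Lhx8 −0.21, Gad1 −0.27, Gad2 −0.497 and Slc5a7 −0.71. Over all genes of experiment 2 the quartiles of r with Cux2 were −0.66 and 0.70. The part of interneurons in the level of Cux2 was not tested.

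Neuroblast genes had a median log2 fold change of 0.47 in experiment 1 and 0.22 in experiment 2, with 3 of 4 higher in each and none called. Dlx1, Dcx and Cd24 were known from this same contrast, so their direction in experiment 1 is not independent of it. The summed level of the 9 genes found was 246 to 309 CPM in the 5 water rats and 317 to 435 CPM in the 5 EtOH rats. Of 4 that passed the filter, Dlx1, a homeobox factor of newborn GABAergic neurons, had the largest log2 fold change at 0.76 (SE 0.19, adjusted p = 0.54 in edgeR's fit across all genes) and Dlx5 the smallest at −0.21 (SE 0.19). The r of Dlx1 was 0.75 with Etv1 and −0.63 with Cux2 in experiment 1, and −0.18 and 0.45 in experiment 2. The other 3 had smaller values in experiment 1, at 0.37 and −0.41 for Cd24, −0.081 and 0.074 for Dcx, and −0.062 and 0.12 for Dlx5. The list medians with Etv1 and Cux2 were 0.15 and −0.17 in experiment 1, and 0.093 and −0.31 in experiment 2. The part of these cells in the levels of Etv1 and Cux2 was not tested.

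The glial lists had smaller median log2 fold changes than the neuroblast list in experiment 1, although Pdgfra stood out among their genes. The median log2 fold change was 0.047 for astrocyte, 0.061 for oligodendrocyte lineage and −0.019 for microglia genes in experiment 1, and 0.029, −0.23 and −0.27 in experiment 2. Pdgfra, the receptor that marks oligodendrocyte precursors, was the largest of its list in both, at 0.30 (SE 0.064) and 0.18 (SE 0.13). Mbp was the smallest (−0.11 and −0.63). The edgeR adjusted p of Pdgfra in experiment 1 was 0.54. The paper placed Pdgfra among its top genes of that contrast, so its value there is not independent of it. Slc1a3 (0.10) and Aldh1l1 (−0.069) ended the astrocyte list in experiment 1 and Aqp4 (0.24) and Gfap (−0.61) in experiment 2, and for microglia P2ry12 was largest (0.14 and 0.10) and Itgam (−0.38) or Cx3cr1 (−0.63) smallest. Of the ependymal and choroid plexus genes only Foxj1 passed the filter, in experiment 1, at 0.65 (SE 0.28), with an r of −0.69 with Cux2 and 0.64 with Etv1, and the summed level of that list was 2.7 to 30.8 CPM over all rats.

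In experiment 2 genes of other cell types also had large r values with Cux2, in both directions within a list. Of the 5 astrocyte genes, Aqp4 had −0.80, Slc1a3 −0.74 and Gja1 −0.90, while Gfap had 0.67 and Aldh1l1 0.64. Of the 5 microglia genes, Cx3cr1 had 0.74, Csf1r 0.77 and Itgam 0.79, while Aif1 had 0.25 and P2ry12 −0.34.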

How the data were processed

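PolyA+ RNA-seq of NAc was available as 1 table for each of 22 rats. The authors aligned reads to rn6 with Tophat2, counted them per gene with htseq-count (2 HTSeq versions, 0.5.3p3 and 0.6.0, are named in the submitters' notes) and deposited raw counts, unnormalized and unfiltered; the counting options are not given in the sources used here. The 5 htseq summary lines were left out of library sizes. Experiment 1 used non-strand-specific and experiment 2 strand-specific libraries, so reads over overlapping genes may have been assigned differently, depending on the counting options.

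Groups came from the sample titles. Nothing beyond separate rats is known of the replicates. The genes and lists were chosen with earlier results of these data known. Each experiment was fitted on its own in edgeR 4.0.16 (R 4.3.3; TMM, glmQLFit and glmQLFTest at defaults) over the 8655 genes whose mean normalized count exceeded the median gene's (43.6 and 66.4), with Benjamini-Hochberg adjustment and a threshold of 0.1. DESeq2 1.42.0 was an alternative. CPM are scaled by TMM. For r, log2 CPM (prior count 2) were centred on group means, and p came from all 14400 orders of rats within groups in experiment 1 (smallest p 6.9e-05) and 100000 random ones in experiment 2 (smallest p 1e-05), two-sided. The family held 13 pairs an experiment for Cux2 and Etv1, and the pairs with Slc17a7 were added after the data were seen. A gene was named if it was a member, one of the 5 with the highest r, or at either end of a marker list by log2 fold change. Both tests were tried on simulated data. No 2 libraries agreed within sampling noise (chi-square per degree of freedom at least 2.99). For rats of equal replicate number, r of their deviations was −0.12 to 0.14 in experiment 1, which showed no pairing. In experiment 2 it was −0.76 to 0.84 (mean 0.15), a range too wide to tell whether equal numbers paired the rats.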

Additional observations from a re-analysis of the deposited data

Results flagged for a closer look

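In 3 of 32 groups of a gene's CPM values, 1 rat lay farther from the others than Dixon's 95% limit for the gap over the range; chance flags about 1 group in 20, or 1.6 here. Cux2 was lowest in EtOH rat 2 of experiment 1 at 33.8 CPM, with the other 4 rats of the group at 48.1 to 49.5 CPM. Slc17a7 was highest in EtOH rat 3 at 561 CPM, with the next rat at 283 CPM. Neurod2 was highest in the same rat at 26.4 CPM, with the next at 13.5 CPM. EtOH rat 3 had 48.1 CPM of Cux2, within the range of its group.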

How the results depend on the processing

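Over all alternatives tried, 6 of 16 log2 fold changes and 14 of 36 r values changed sign at least once, and each was within its error of 0 or not called. Among the 6 genes tested in the contrast of experiment 1 and the 7 of experiment 2, 0 were called under every alternative; over all genes of experiment 1, 16 were called by edgeR without water rat 5. The choice of scaling, prior count, rank or Pearson coefficient and filter left the count of genes going with Cux2 in experiment 2 within 1.5 times of 6, while it was 0 with a replicate block, without the 2 rats farthest from the median and without the 3 rats under 10 CPM of Slc17a7, and 3 to 6 when each rat was left out. With the replicate block r itself was 0.82 with Slc17a7, 0.89 with Tbr1, 0.82 with Neurod6 and 0.81 with Nrn1, and 0.0116% of all genes were called. With Etv1 it was 0 to 6 when each rat was left out. For Slc17a7 in experiment 1 the count of 2 fell to 0 with Spearman's coefficient, with a replicate block, without the 2 farthest rats and without any 1 rat; in experiment 2 the count of 5 was 0 with a replicate block and without the low rats, and 2 without the 2 farthest. In experiment 2 the r of Slc17a7 with Tbr1, Neurod6 and Nrn1 was 0.96, 0.99 and 0.93 with the block, and 0.94, 0.97 and 0.93 without the low rats, so these calls were lost although r stayed at 0.93 or above. Fewer rats leave fewer orders for the permutation test, and the block removes replicate means that the labels do not tie to a litter or batch.

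Signs changed as follows. With Slc17a7 as covariate, the log2 fold change of Tbr1 became −0.14 in experiment 1 and 0.16 in experiment 2, and in experiment 2 that of Nrn1 became −0.24 and that of Etv1 0.015. For Etv1 in experiment 2 it was 0.020 with DESeq2 or its size factors, 0.021 without a filter and 0.0040 in a fit of all groups. With a replicate block Neurod6 was −0.15 and Nrn1 −0.23 in experiment 2, and without the low rats −0.30 and −0.26. Leaving out each rat gave −0.12 to 0.15 for Etv1, −0.33 to 0.42 for Neurod6, −0.41 to 0.61 for Nrn1 and −0.46 to 0.34 for Tbr1 in experiment 2, and −0.076 to 0.81 for Slc17a7 and −0.21 to 0.54 for Tbr1 in experiment 1.

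In experiment 1 the r of Cux2 was 0.042 with Slc17a7 and 0.14 with Neurod6 by Spearman's coefficient, and −0.11 with Rorb when not centred. Without the 2 farthest rats it was 0.25 with Slc17a7, 0.38 with Neurod6, 0.13 with Neurod2 and −0.39 with Rorb. Leaving out each rat gave −0.48 to 0.054 for Neurod2, −0.46 to 0.29 for Neurod6, −0.11 to 0.40 for Rorb, −0.36 to 0.21 for Slc17a7 and −0.51 to 0.060 for Tbr1. The r of Etv1 in experiment 1 with Rorb was −0.55 with a replicate block and −0.075 without the 2 farthest rats, and leaving out each rat gave −0.061 to 0.70 with Neurod6, −0.14 to 0.38 with Rorb and −0.052 to 0.65 with Slc17a7. In experiment 2 without the 2 farthest rats the r of Etv1 was 0.37 with Slc17a7, 0.34 with Tbr1, 0.38 with Neurod6, 0.20 with Neurod2, 0.37 with Nrn1 and −0.11 with Rorb, and with Nrn1 it was 0.068 without the low rats. The cause of these changes was not tested. Tbr1 and Neurod2 had 0 reads in some rats of experiment 2, whose libraries held more reads on genes than those of experiment 1. In experiment 1 their lowest counts were 10 and 8 reads. The 0 counts of Tbr1 fell in rats under 10 CPM of Slc17a7. Those of Neurod2 fell in such rats and in EtOH gavage rat 2, at 25.8 CPM of Slc17a7.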
